A study of Mus musculus with 12 samples.

Results

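The comparison described here sets control DN3 thymocytes against control regulatory T cells (Treg) of mice, 2 small RNA libraries of the 12 in the series. DN3 thymocytes lack CD4 and CD8 and are rearranging the T cell receptor beta gene. Treg are mature CD4+ T cells that hold back immune responses. The DN3 cells were sorted from thymus of mice carrying Lck-cre, and the CD4+CD25+ Treg were sorted from spleen and lymph nodes of mice carrying CD4-cre. Lck-cre and CD4-cre express the Cre recombinase from T lineage promoters. All mice were on a backcrossed C57BL/6 background and were 6 to 7 weeks old. Cell type, tissue and Cre driver therefore changed together and cannot be told apart. The labels do not say how many animals gave each library. Small RNA between 19 and 30 nt was gel-purified, and the adaptor ligation required the ends that RNase III cleavage leaves, a phosphate at 5′ and a hydroxyl at 3′. Every miRNA name listed in either of these 2 libraries was included, which gave 224 names.

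MicroRNAs (miRNAs) are short RNAs that guide Argonaute proteins to messenger RNAs. Drosha frees a hairpin from the primary transcript, Dicer cuts the hairpin into a duplex, and 1 strand, the guide, is kept more often than the other, the passenger. Target choice rests mainly on the seed, bases 2 to 8 counted from the 5′ end, so miRNAs with the same seed form a family. In T cells, miR-181 is known for tuning receptor signalling in thymocytes, and the miR-17-92 cluster for proliferation and survival. miR-150 is known for marking resting mature lymphocytes and for repressing Myb, and miR-146a and miR-155 for their roles in Treg function.

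The sequences that carried the comparison are given first, as the most abundant form of each miRNA in the library where its summed value was higher, 5′ to 3′ as DNA letters, with the seed in capitals. Of the 26 leading sequences examined, 17 were identical to a mature sequence in RefSeq. Of the 11 leading forms taken from Treg, the 9 shown belong to miRNAs described below as higher there.
miR-150: tCTCCCAAcccttgtaccagt
miR-146a: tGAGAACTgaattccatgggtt
miR-342-3p: tCTCACACagaaatcgcacccgt
miR-22: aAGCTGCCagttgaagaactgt
miR-139-5p: tCTACAGTgcacgtgtctccagt
miR-21: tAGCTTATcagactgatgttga
miR-29a: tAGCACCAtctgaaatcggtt
miR-29b: tAGCACCAtttgaaatcagtgt
miR-29c: tAGCACCAtttgaaatcggtt
The 3 miR-29 sequences share the seed AGCACCA, and the other 6 each had a seed of their own. Of the 15 leading forms taken from DN3, 10 are shown, chosen for 2 shared seeds and for miR-128; the other 5 have other seeds.
miR-181a: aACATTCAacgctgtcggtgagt
miR-181b: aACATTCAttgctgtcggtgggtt
miR-181c: aACATTCAacctgtcggtgagttt
miR-181d: aACATTCAttgttgtcggtgggt
miR-17: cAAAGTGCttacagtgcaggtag
miR-20a: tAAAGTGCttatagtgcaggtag
miR-106a: cAAAGTGCtaacagtgcaggtag
miR-20b: cAAAGTGCtcatagtgcaggtag
miR-93: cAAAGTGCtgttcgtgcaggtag
miR-128: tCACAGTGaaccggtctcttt
The 4 miR-181 sequences share ACATTCA, the 5 members of the miR-17 family share AAAGTGC, and miR-128 stands alone with CACAGTG.

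In the GRCm38 annotation (GENCODE M21), Mir150 lies at chr7:45121757-45121821 on the plus strand and overlaps no other annotated gene. Mir342 lies at chr12:108658620-108658718 in an intron of Evl. Mir29a lies at chr6:31062660-31062747, and Mir29c lies at chr1:195037547-195037634 in an exon of A330023F24Rik. miR-181a and miR-181b come from 2 loci each, with the pair Mir181a-1 (chr1:137966455-137966541) and Mir181b-1 (chr1:137966639-137966718) in exons of the long noncoding RNA A430106G13Rik. Mir181c and Mir181d lie next to each other in an intron of Nanos3 on chromosome 8. miR-128 has the loci Mir128-1 in an intron of R3hdm1 on chromosome 1 and Mir128-2 in an intron of Arpp21 on chromosome 9. Mir17 (chr14:115043671-115043754) and Mir20a (chr14:115044157-115044263) lie in exons of Mir17hg. Reads of identical mature sequences from 2 loci cannot be assigned to a locus in these lists.

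Values are the authors' normalised mapping counts, which sum to about 1000000 per library, with no entry below 10. The DN3 control list held 1067 sequences and 208 miRNA names and summed to 994020. The Treg control list held 962 sequences and 197 names and summed to 1002325. Sequencing depth is unknown, so no counting interval can be given. A level can be read only against the rest of the same library, and fewer cells of a type and less miRNA per cell cannot be told apart. The same contrast was also available from Dicer-deficient and Drosha-deficient DN3 thymocytes (Lck-cre) and Treg (CD4-cre), 1 library each. These 2 further pairs are called the Dicer pair and the Drosha pair below. They carry deletions of the miRNA processing enzymes, whose extent is not known from the lists, so they are not replicates of the control pair. Across them the deposited totals ran from 993965 to 1027032 and the number of names from 188 to 208. The Drosha-deficient Treg library stood apart in some miRNAs, with miR-181a at 59531 and miR-451 at 7748 against 13227 and 1102 in Treg control, so counts of calls per list and the miR-181a change are also given without the Drosha pair.

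The 2 control libraries were dominated by different miRNAs. In DN3 the highest summed value belonged to miR-16 with 136868, followed by miR-181a with 98891 and miR-20a with 91444. In Treg the highest belonged to miR-21 with 171793, followed by miR-16 with 114923 and miR-142-5p with 94703. miR-181a ranked 2 in DN3 and 17 in Treg, and miR-20a ranked 3 and 16. miR-29b ranked 15 in DN3 and 4 in Treg, and miR-29a ranked 18 and 5. The 10 highest miRNAs took 58.5% of all guide and passenger values in DN3 and 72.9% in Treg, so the Treg library was the more concentrated of the 2.

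Of the 224 names, 181 were listed in both control libraries, and 127 had a summed value of at least 50 in both. The median miRNA of these 127 had 0.614 times its DN3 value in Treg, a log2 ratio of -0.70, computed as log2 of (Treg + 0.5) over (DN3 + 0.5). Ratios are therefore given below relative to this median unless called plain. By that measure 28 miRNAs (22.0%) were at least 1 log2 unit higher in Treg, 30 (23.6%) were at least 1 lower, and 69 lay within 1. Without the centring, 13 were higher and 56 lower, so 48.3% of the calls were higher with centring and 18.8% without it. With 1 library a side the control pair alone allows no test. Beside it, the Pearson correlation of the log2 ratios was 0.886 with the Dicer pair over 127 miRNAs and 0.713 with the Drosha pair over 126, points that share a library, so it is given as a description only.

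**Figure D1:**
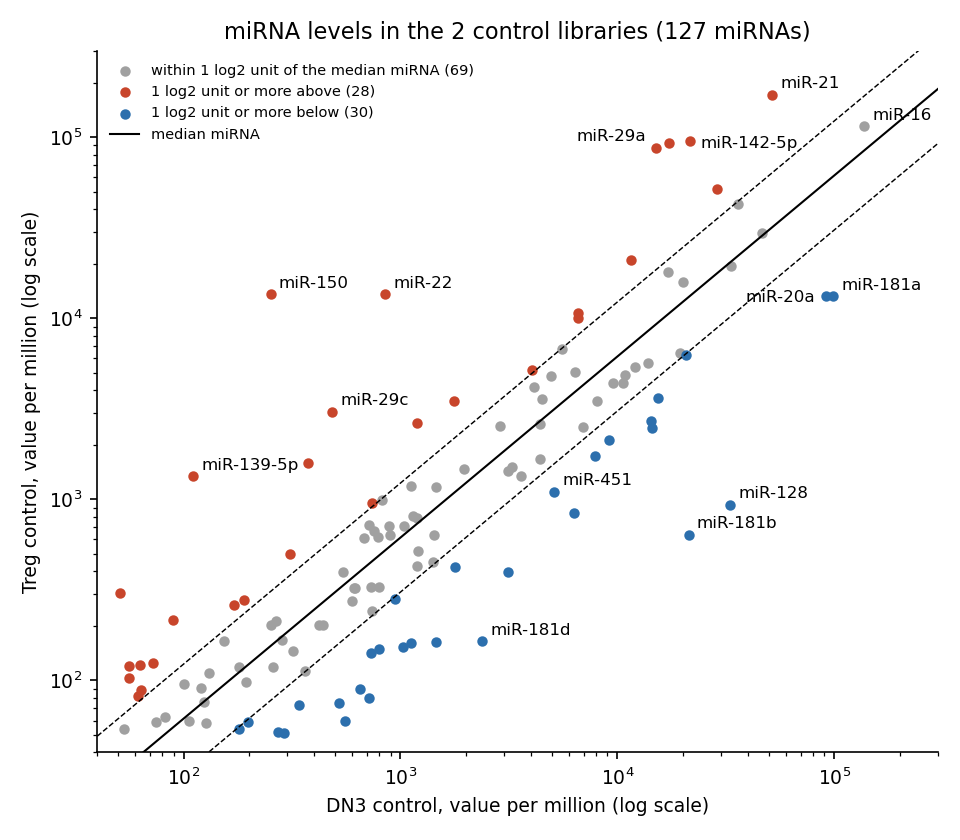
Summed normalised value of 127 miRNAs in the DN3 control library (x axis, log scale) and the Treg control library (y axis, log scale), 1 point a miRNA. The solid line marks the median miRNA and the dashed lines 1 log2 unit on either side. miR-150 and miR-22 lie far above the band, and miR-128, miR-181b and miR-181d lie far below it.

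A limma fit over all 6 DN3 and Treg libraries, with genotype as a block, asked which miRNAs differed between the 2 cell types on average over the 3 genotypes. Its replicates are genotypes, and its p-values set the cell type difference against a moderated spread between the 3 pairs. That spread combines each miRNA's own with one shared over all fitted miRNAs. Of 143 miRNAs listed in all 6 libraries with a mean of at least 50, 23 (16.1%) were higher in Treg and 30 (21.0%) were lower at a Benjamini-Hochberg adjusted p under 0.05. At an unadjusted p under 0.05 there were 63. All 53 called miRNAs went the same way in 3 of 3 pairs, which a call from 3 pairs makes likely in itself. In centred level the DN3 and Treg libraries did not overlap for 70 of the 143 fitted miRNAs, including some that were not called. Of the 28 miRNAs higher in the control pair, 17 passed this fit and 15 passed when the control pair was left out. Of the 30 lower, 21 passed and 16 passed without the control pair. None of either group passed in the opposite direction over the 6 libraries. The control pair both picked these miRNAs and entered that fit, so the counts over 6 libraries are no independent support. In the 4 libraries without the control pair, however, the adjusted p followed the size of the change alone. There let-7d* passed at 1.60 (limma adjusted p 0.0481), and miR-92a did not at -1.52 (adjusted p 0.0633). Passing without the control pair was therefore a cutoff on size, not a test against the spread of each miRNA. Without the Dicer pair only 11 higher and 9 lower calls were left, and without the Drosha pair there were 21 and 31, with 45 of the 53 calls shared. Of the miRNAs named below as passing, miR-18b, miR-31, miR-107 and miR-223 did not pass without the Drosha pair. Their adjusted p in limma were then 0.0714, 0.14, 0.0689 and 0.0893. Without the Dicer pair, miR-142-3p, miR-155 and miR-99a were among those that did not pass (limma adjusted p 0.0842, 0.17 and 0.0512).

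miRNAs known from mature T lymphocytes were higher in Treg, and 2 of them, miR-150 and miR-342-3p, had the highest limma changes of all fitted miRNAs. miR-150 had summed values of 252, 342 and 68 in the control, Dicer-deficient and Drosha-deficient DN3 libraries, and of 13579, 14570 and 10566 in the matching Treg libraries. Every Treg library lay far above every DN3 library, while 70 of all 143 fitted miRNAs had no overlap in centred level. The control pair differed 53.9-fold, a centred log2 ratio of 6.45, and the limma change over 6 libraries was 6.71 ± 0.43 (SE, adjusted p 2.58e-05). miR-342-3p, which is processed from an Evl intron, was at 49, 129 and 416 in DN3 and at 6357, 4083 and 2843 in Treg. Its limma change was 5.49 ± 0.74 (adjusted p 0.000796). Its DN3 control value lay just under the minimum of 50, so it is not among the 28. The passenger strand of the same hairpin, miR-342-5p, was listed at 166 in Treg control and was not in the DN3 control list.

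miR-146a, a brake on NF-kappaB signalling through Traf6 and Irak1, was not in the DN3 control list and stood at 63 and 33 in the Dicer-deficient and Drosha-deficient DN3 libraries. In Treg it stood at 13966, 24622 and 25115, the highest value among the 16 miRNAs listed in Treg control only. A miRNA missing from a list is below a floor of 10 for each of its sequences, which is not the same as 0, so no fold is given. miR-10a, a miRNA of the Hoxb cluster known from Treg, had the second highest value of that group. It was at 2214, 1453 and 1684 in Treg, against no listing, 15 and 17 in DN3. miR-150* (194), miR-342-5p (166) and miR-99b (141) were the next 3, and 8 of the 16 reached 50.

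The miR-29 family, which in T cells is known to repress T-bet, eomesodermin and interferon gamma, was higher in Treg with all 3 members. miR-29a was at 15114, 23184 and 14251 in the control, Dicer-deficient and Drosha-deficient DN3 libraries, and at 87488, 55407 and 39604 in Treg. miR-29b was at 17292, 21961 and 36848 in DN3 and at 92688, 63262 and 60878 in Treg. The less abundant miR-29c was at 483, 598 and 242 in DN3 and at 3049, 3086 and 3168 in Treg. For each of the 3 the DN3 and Treg libraries did not overlap, which held in centred level for 70 of all 143 fitted miRNAs. The limma changes were 2.32 ± 0.43 (adjusted p 0.00334) for miR-29a, 2.13 ± 0.47 (adjusted p 0.00816) for miR-29b and 3.48 ± 0.40 (adjusted p 0.000346) for miR-29c. The summed family took 3.33% of the DN3 control values and 18.4% of the Treg control values. Of the 5 mature T lymphocyte miRNAs in the fit (miR-150, miR-342-3p and the miR-29 family), all 5 were higher, beside 16.1% of all fitted miRNAs. Like the other lists, this one was chosen with earlier results of these data known. Its count is therefore a description, not independent support. The median change of the 5 was 3.48 against -0.16 over all 143 fitted. All 5 also passed without the Drosha pair, and 3 (miR-150, miR-342-3p and miR-29c) without the Dicer pair.

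Among miRNAs known from activated or regulatory T cells the members did not move together. Of 6 fitted, 3 were higher, 2 were lower and 1 did not pass, beside 16.1% higher and 21.0% lower over all fitted miRNAs. Without the Drosha pair 3 were higher and 1 lower, and without the Dicer pair 1 and 1. miR-21, which is induced by T cell activation and STAT3, was at 51578, 64371 and 64938 in DN3 and at 171793, 294500 and 275990 in Treg. Its limma change was 2.57 ± 0.38 (adjusted p 0.00137), and its passenger strand miR-21*, at 375 in DN3 control and 1590 in Treg control, also passed as higher. miR-155, a repressor of Socs1 needed for Treg fitness, was at 4032, 2287 and 2883 in DN3 and at 5150, 7208 and 6781 in Treg, a limma change of 1.65 ± 0.42 (adjusted p 0.0144). In plain values the control pair of miR-155 differed only 1.28-fold. miR-24 was the third higher member, with 6589 in DN3 control and 10708 in Treg control. miR-146b, which has the seed of miR-146a, went the other way, from 534, 592 and 1003 in DN3 to 36, 124 and 97 in Treg (limma -2.59 ± 0.45, adjusted p 0.00266). miR-31 was also lower over the 6 libraries (limma -1.61 ± 0.54, adjusted p 0.0474), although its control pair had a centred log2 ratio of only -0.44 and its DN3 and Treg libraries overlapped in centred level.

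**Figure D2:**
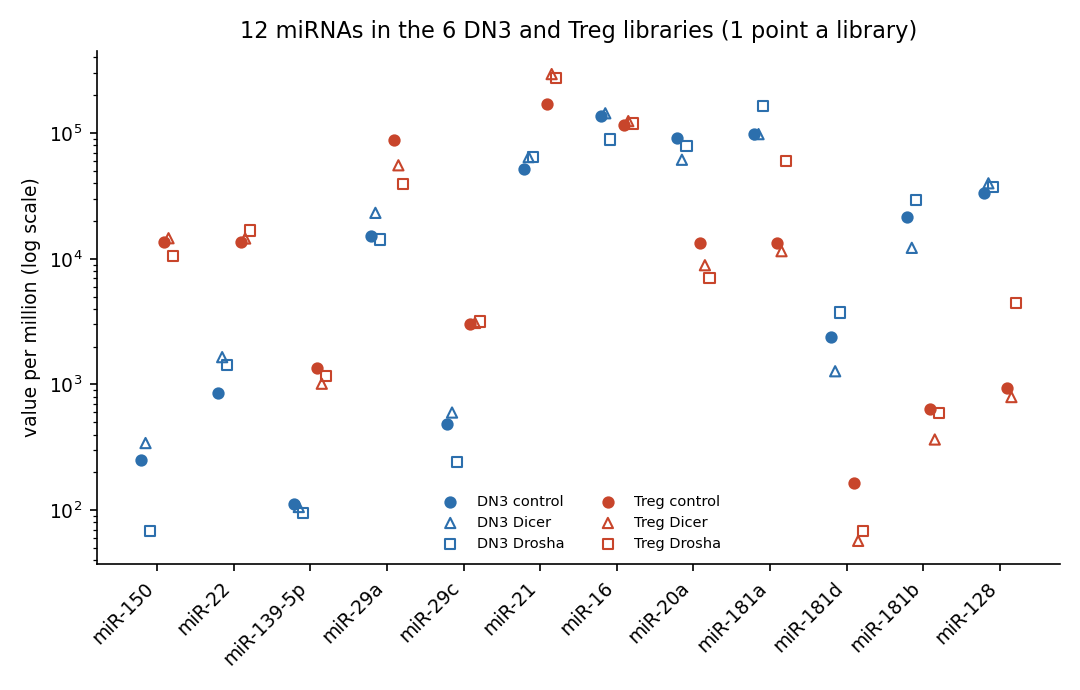
Summed normalised value (log scale) of 12 miRNAs in the 6 DN3 and Treg libraries, 1 point a library; filled circles are the 2 control libraries and open symbols the Dicer-deficient and Drosha-deficient ones. The DN3 and Treg points do not overlap for miR-150, miR-22, miR-21, miR-20a or miR-128. Those of miR-16 do in these plain values, although not in centred level, in which 70 of the 143 fitted miRNAs did not overlap.

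Several other miRNAs were higher in Treg by large factors from low DN3 values. miR-22 was at 853, 1650 and 1425 in DN3 and at 13531, 14498 and 16759 in Treg (limma 4.13 ± 0.39, adjusted p 0.0001). miR-139-5p, from an intron of Pde2a, was between 95 and 111 in the 3 DN3 libraries and at 1341, 1014 and 1161 in Treg (limma 4.05 ± 0.37, adjusted p 0.0001). miR-125a-5p, which is clustered with let-7e and miR-99b, was at 21, 44 and 11 in DN3 and at 845, 549 and 516 in Treg (limma 5.37 ± 0.45, adjusted p 8.42e-05). The other members of that cluster also had higher values in Treg. let-7e stood at 89 in DN3 control and 216 in Treg control, with a limma change of 2.45 ± 0.40 (adjusted p 0.00204). The related miRNAs miR-99a and miR-125b-5p, which come from other loci, had lower values in Treg. miR-99a was at 745, 740 and 191 in DN3 and at 15, 27 and 44 in Treg (limma -3.58 ± 0.59, adjusted p 0.00209). miR-125b-5p was at 326 in DN3 control, the highest of the 27 miRNAs listed in that control only, and was not in the Treg control list. miR-301b, miR-421 (97), miR-222 (78) and miR-126-5p (70) followed, and 8 of the 27 reached 50.

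The miRNAs known from immature thymocytes, the miR-181 family and miR-128, were lower in Treg. All 5, on a list also chosen with earlier results known, passed the limma fit as lower, beside 21.0% of all fitted miRNAs. The 3 lowest changes of all fitted miRNAs were among these 5. miR-128 was at 33075, 39830 and 37180 in DN3 and at 935, 794 and 4471 in Treg. The control pair differed 35.4-fold, and the limma change was -4.05 ± 0.50 (adjusted p 0.00046). miR-181b was at 21312, 12215 and 29171 in DN3 and at 638, 365 and 591 in Treg, a control pair difference of 33.4-fold and a limma change of -4.68 ± 0.40 (adjusted p 8.42e-05). miR-181d, from the miR-181 locus on chromosome 8, was at 2384, 1274 and 3734 in DN3 and at 164, 57 and 68 in Treg (limma -4.13 ± 0.50, adjusted p 0.000439). For these 3 no Treg library reached any DN3 library. In centred level, 70 of all 143 fitted miRNAs did not overlap.

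The members of the miR-181 family differed in size of change although their seeds are identical. miR-181a, the most abundant, was at 98891, 98040 and 163745 in DN3 and at 13227, 11488 and 59531 in Treg, with a control pair difference of 7.48-fold. Its limma change was -1.92 ± 0.42 (adjusted p 0.00792), and -2.31 without the Drosha pair (adjusted p 0.00555). That pair was left out partly because miR-181a stood apart in it, so the second value is no added support. miR-181c was at 7881 in DN3 control and 1730 in Treg control, a 4.56-fold difference (limma -1.95 ± 0.39, adjusted p 0.00471). In the control pair the centred log2 ratio was thus -4.36 for miR-181b, -3.15 for miR-181d, -2.20 for miR-181a and -1.48 for miR-181c. Differences between members were not tested. Summed over the family, the seed ACATTCA took 13.2% of the DN3 control values and 1.58% of the Treg control values, most of it miR-181a in both. The list of 5 immature thymocyte miRNAs took 16.6% and 1.67%. All 5 passed as lower without the Drosha pair, and 3 (miR-128, miR-181b and miR-181d) without the Dicer pair.

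The miR-17-92 cluster, which is transcribed from Mir17hg and drives lymphocyte proliferation when raised, was lower in Treg. All 6 cluster members, a list also chosen with earlier results known, passed the limma fit as lower, beside 21.0% of all fitted miRNAs. The median change of the cluster was -1.67 against -0.16 over all fitted miRNAs. All 6 also passed without the Drosha pair, but only miR-20a without the Dicer pair. miR-20a was at 91444, 61316 and 79025 in DN3 and at 13305, 8884 and 6990 in Treg (limma -2.45 ± 0.41, adjusted p 0.00218). miR-17 was at 14461, 10911 and 13359 in DN3 and at 2481, 1630 and 2001 in Treg (limma -2.11 ± 0.38, adjusted p 0.00296). No Treg library of either miRNA reached a DN3 library, beside 70 of all 143 fitted miRNAs without overlap in centred level. In the control pair the centred log2 ratios of the cluster ran from -2.22 for miR-18a to -0.76 for miR-19b. The cluster took 13.8% of the DN3 control values and 2.32% of the Treg control values. miR-19b and miR-92a each have another locus on chromosome X (Mir19b-2 and Mir92-2), so their values cannot be assigned to Mir17hg alone.

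Of the 7 miRNAs of the paralogous clusters, 4 passed as lower and none as higher, beside 21.0% lower and 16.1% higher over all fitted miRNAs. Without the Drosha pair 3 passed, and without the Dicer pair none did. miR-20b (14355 in DN3 control, 2709 in Treg control), miR-106a (9103 and 2134), miR-93 (20674 and 6241) and miR-18b (447 and 43) were those 4. miR-25, miR-106b and miR-363 did not pass, with control pair log2 ratios of -0.72, -0.43 and -0.43. Over both clusters the seed AAAGTGC took 15.4% of the DN3 control values and 2.83% of the Treg control values.

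**Figure D3:**
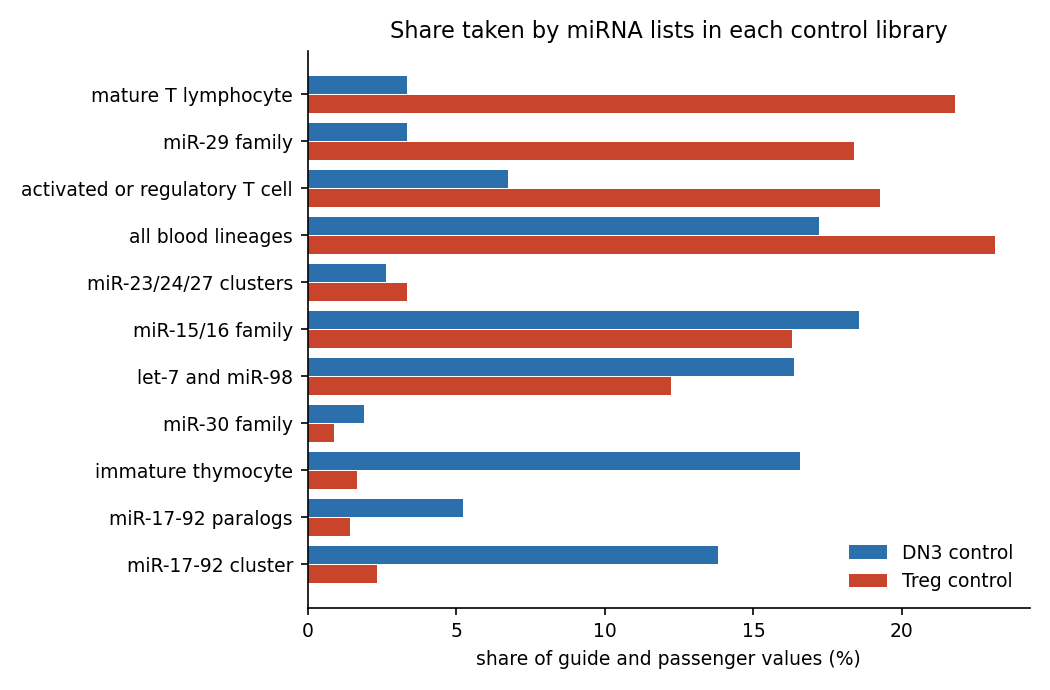
Share (%) of the summed guide and passenger values taken by 11 miRNA lists in the DN3 control and Treg control libraries, 1 bar a library. The miR-17-92 cluster and the immature thymocyte list shrink from DN3 to Treg, the miR-29 and mature T lymphocyte lists grow, and the miR-15/16 and let-7 lists differ much less.

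Most of the abundant families in between shifted little relative to the median miRNA. The let-7 family, known for repressing growth factors and Lin28 targets, took 16.4% of DN3 control values and 12.2% of Treg control values. Of its 9 fitted members only let-7e passed, although let-7g, at 28645 in DN3 control and 51722 in Treg control, was higher by 1.56 in the control pair (limma 1.12 ± 0.39, adjusted p 0.0554). Without the Drosha pair let-7g passed (limma 1.38, adjusted p 0.0265), and without the Dicer pair no let-7 member did. The miR-15/16 family, repressors of Bcl2 and cyclins, took 18.5% and 16.3%, and none of 4 fitted members passed. miR-16, the most abundant DN3 miRNA, was at 136868, 143651 and 88739 in DN3 and at 114923, 124433 and 119254 in Treg. The miR-30 and miR-26 families, the miR-101 family and the list of miR-191 with miR-425 had no member that passed. In the miR-23/24/27 clusters, miR-23a and miR-24 passed as higher, and miR-23b, miR-27a and miR-27b did not. Without the Dicer pair none of the 5 passed. Of the less abundant list members, miR-107 (limma -1.73 ± 0.47, adjusted p 0.0181) and miR-221 (-1.68 ± 0.39, adjusted p 0.00993) passed as lower. Neither of them passed without the Dicer pair, and miR-103, the relative of miR-107, did not pass over the 6 libraries.

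miR-142, expressed in all blood lineages, was higher in Treg on both strands. miR-142-5p was at 21647, 32185 and 8467 in DN3 and at 94703, 56428 and 46754 in Treg (limma 2.37 ± 0.43, adjusted p 0.00296). miR-142-3p was at 11554, 12821 and 3854 in DN3 and at 21041, 16404 and 16054 in Treg (limma 1.66 ± 0.42, adjusted p 0.0139). Because the 5p strand differed more, the 3p strand made up 34.8% of the hairpin's 2 strands in DN3 control and 18.2% in Treg control. The same share went from 28.5% to 22.5% in the Dicer pair and from 31.3% to 25.6% in the Drosha pair. Among 30 hairpins with both strands listed and a summed value of at least 200, the second strand gained by 1 log2 unit or more relative to the first in 4 and lost as much in 3. miR-17* went from 23.3% to 40.3% of the miR-17 hairpin in the control pair, but its changes in the Dicer and Drosha pairs were only 0.23 and 0.21 on the log2 scale of the strand ratio. Strand ratios were not tested.

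Markers of other cells were low in both control libraries except miR-22 and miR-451. The myeloid miR-223 was at 28 in DN3 control and 24 in Treg control, but at 746 and 588 in the Dicer-deficient and Drosha-deficient Treg libraries, against 121 and 15 in DN3. Its limma call as higher (3.12 ± 0.82, adjusted p 0.0163) therefore did not come from the control pair. The erythroid miR-451, miR-144 and miR-486 together took 0.559% of DN3 control values and 0.12% of Treg control values, and 0.834% in the Drosha-deficient Treg library. Neither fitted member, miR-451 or miR-144, passed over the 6 libraries, but both passed as lower without the Drosha pair (limma -2.01, adjusted p 0.0124, and -1.59, adjusted p 0.0161). That pair was left out partly because miR-451 stood apart in it, so passing without it is no independent support. The summed epithelial miRNAs were at 157 in DN3 control and 392 in Treg control, the endothelial miR-126 strands at 453 and 34. In the limma fit miR-141 passed as higher (1.52 ± 0.38, adjusted p 0.0138) and miR-126-3p as lower (-1.60 ± 0.54, adjusted p 0.0477). Neither passed without the Dicer pair (limma adjusted p 0.128 and 0.261) or without the control pair. Of the 7 miRNAs listed for fibroblasts, miR-22 was the only one listed in DN3 control, and miR-143, at 10, was the only other one in Treg control, so this list's sum is miR-22. The part of these cells in the results was not tested.

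The sequence variants of each miRNA arm were then compared. An arm is 1 of the 2 strands of a hairpin, and its variants differ mainly at the 3′ end. In the control pair 48 arms had a summed value of at least 1000 in both libraries. The mean length of 43 arms was shorter in Treg and that of 5 was longer, with a median change of -0.25 nt, and 13 arms were shorter by at least 0.5 nt. Over all guide and passenger entries, the mean length was 22.16 nt in DN3 control and 21.69 nt in Treg control. Sequences under 22 nt held 22.6% of the DN3 control values and 38.6% of the Treg control values. The direction was the same for arms whose level was higher or lower in Treg: all 16 arms with a plain value as high or higher in Treg were shorter, as were 27 of the 32 others.

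The length shift recurred in part in the other pairs. In the Dicer pair 32 of 45 arms were shorter in Treg, with a median change of -0.069 nt, and in the Drosha pair 43 of 45, with a median of -0.263 nt. Of 39 arms in all 3 pairs, 27 were shorter in 3 of 3 and 1, miR-92a, was longer in 3 of 3. DN3 libraries also differed among themselves, with mean lengths of 22.16, 21.99 and 22.52 nt in the control, Dicer-deficient and Drosha-deficient libraries. The Treg libraries had 21.69, 21.85 and 21.88 nt, so every Treg library was shorter on average than every DN3 library.

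**Figure D4:**
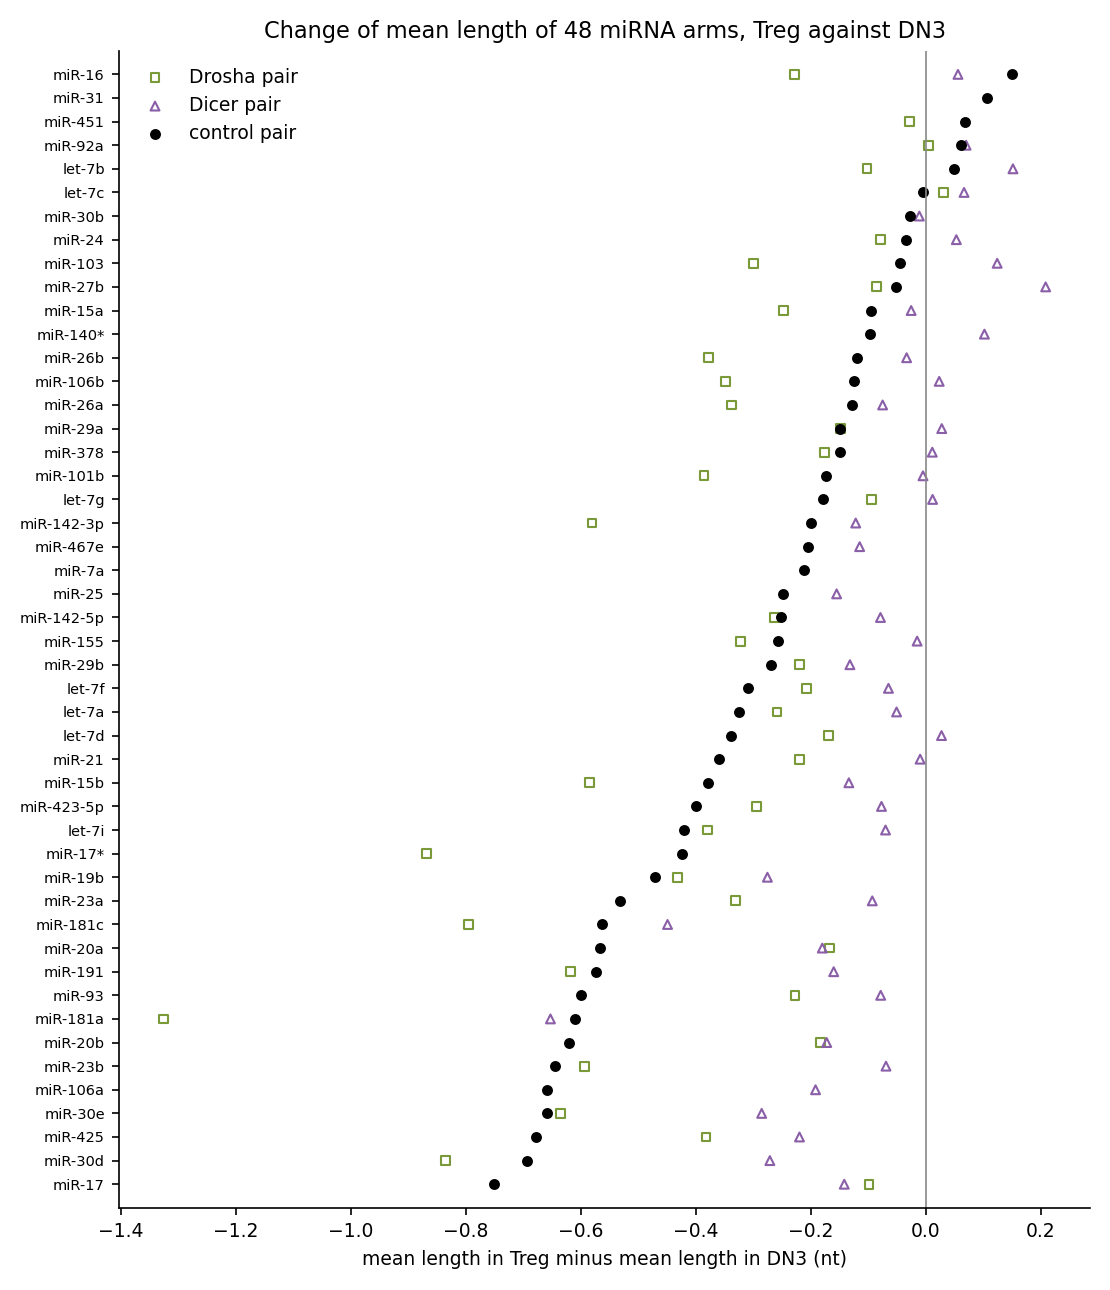
Mean length of each of 48 miRNA arms in Treg minus that in DN3 (nt), for the control pair (filled circles), the Dicer pair (triangles) and the Drosha pair (squares); values left of 0 are shorter in Treg. The control points lie left of 0 for 43 arms, the Drosha points likewise for most, and the Dicer points sit closest to 0.

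Of the 10 arms whose make-up differed most, 5 were members of the miR-17 seed family, which has 6 of the 48 arms. The sixth, miR-106b, had one of the lowest differences, 4.48%, and a mean length only 0.125 nt shorter in Treg. Make-up difference is the share of an arm's value that would have to move between sequences to turn one library's make-up into the other's. Its median over the 48 arms was 17.8%, and it was 34.7% for miR-19b, 34.5% for miR-17, 33.9% for miR-106a, 33.3% for miR-20b and 30.7% for miR-20a. miR-30d, miR-93, miR-181c, let-7f and miR-425 followed. In 10 arms the most abundant sequence itself differed between the libraries. The forms of 3 abundant arms show where the difference lay, with the bases beyond the shortest of the forms shown in capitals.
miR-20a, 21 nt: taaagtgcttatagtgcaggt
miR-20a, 22 nt: taaagtgcttatagtgcaggtA
miR-20a, 23 nt: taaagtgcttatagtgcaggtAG
miR-17, 21 nt: caaagtgcttacagtgcaggt
miR-17, 23 nt: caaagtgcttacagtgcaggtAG
miR-29b, 22 nt: tagcaccatttgaaatcagtgt
miR-29b, 23 nt: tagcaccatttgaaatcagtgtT
The 23 nt form of miR-20a held 73.5% of the arm in DN3 control and 44.0% in Treg control, and the 21 nt form 8.19% and 23.98%. The 21 nt form of miR-20a also went from 12.7% to 17.3% in the Dicer pair and from 4.84% to 10.2% in the Drosha pair. For miR-17 the 21 nt form went from 14.9% to 44.3% in the control pair and became the leading sequence, while the Dicer pair went from 24.6% to 30.6% and the Drosha pair from 9.25% to 15.99%. The control pair thus showed the widest difference of the 3 for both.

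miR-29b showed the same kind of difference although its level went the other way. Its 22 nt form held 26.8% of the arm in DN3 control and 51.6% in Treg control. The corresponding shares were 32.2% and 43.7% in the Dicer pair and 19.3% and 38.9% in the Drosha pair. The most abundant Treg miRNA, miR-21, had a 21 nt form at 16.8% in DN3 control and 31.7% in Treg control. Its Dicer pair hardly differed (19.4% and 20.8%), and the mean length in its Drosha pair changed by -0.219 nt. miR-16 was the arm with the largest opposite shift in the control pair, where its mean length was 0.15 nt longer in Treg and its 23 nt form went from 35.5% to 50.2%. That shift was not repeated in the Drosha pair, where the 23 nt form of miR-16 went from 47.6% to 39.1%.

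**Figure D5:**
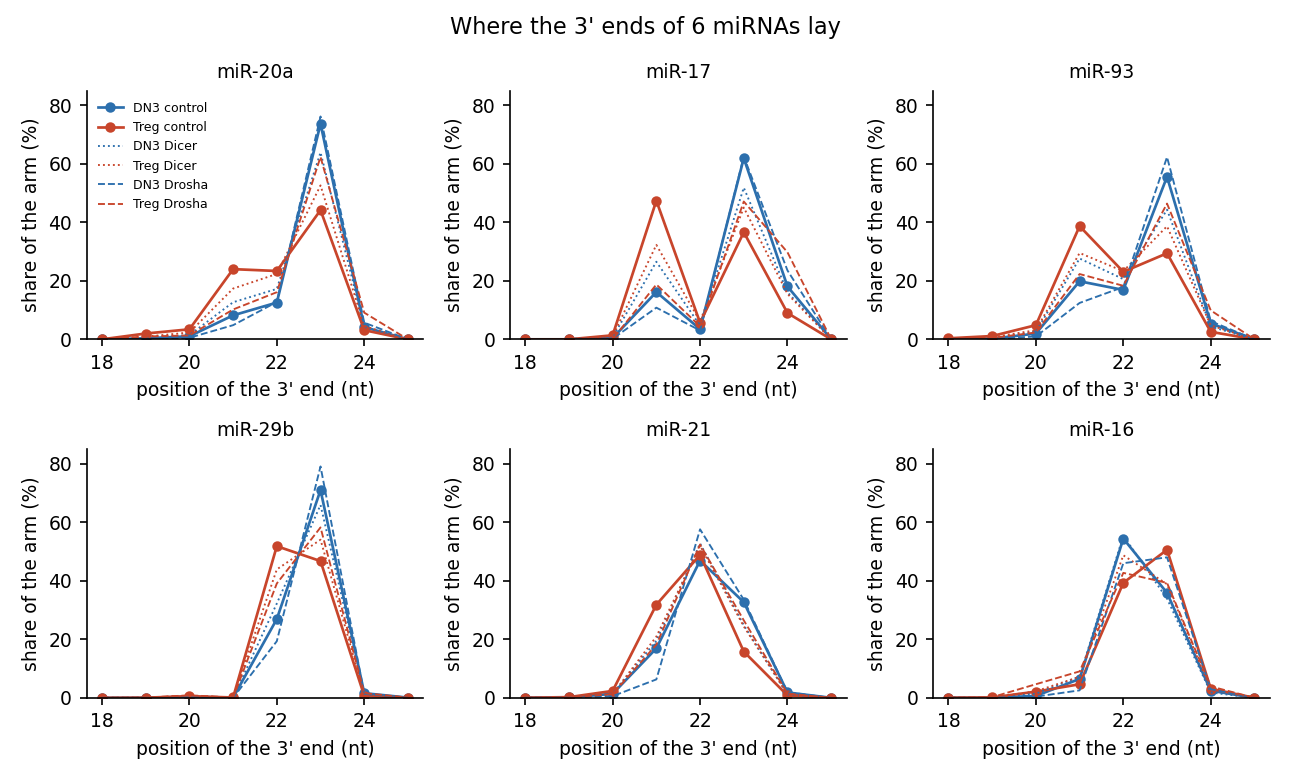
Share (%) of 6 miRNA arms whose 3′ end lies at each position, counted in nt from the 5′ end of the leading DN3 sequence, in the 6 libraries (blue DN3, red Treg; solid with points control, dotted Dicer-deficient, dashed Drosha-deficient). The Treg control line is higher than DN3 control at 21 nt for miR-20a, miR-17, miR-93 and miR-21 and at 22 nt for miR-29b, while for miR-16 it is higher at 23 nt.

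The 5′ ends, which set the seed, were much more alike. Across the 48 arms the median share of sequences that began elsewhere than the leading DN3 sequence was 0.334% in DN3 and 0.302% in Treg. The share was over 10% in both libraries for 5 arms, among them miR-142-5p, miR-101b and miR-140*. For miR-101b, sequences that began 1 base upstream held 37.5% in DN3 control and 37.7% in Treg control. The 2 arms with a large shift of start, miR-140* and miR-142-5p, were chosen after their values were seen. Their main forms are shown by start, with the seed in capitals.
miR-140*, upstream start: tACCACAGggtagaaccacgg
miR-140*, leading DN3 start: aCCACAGGgtagaaccacgga
miR-142-5p, upstream start: cCCATAAAgtagaaagcact
miR-142-5p, leading DN3 start: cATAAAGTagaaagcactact
miR-140*, from Mir140 (chr8:107551244-107551313, in an exon of Wwp2 by GENCODE), began 1 base upstream in 31.1% of its value in DN3 control and in 54.5% in Treg control. The same share was 40.7% and 56.0% in the Dicer pair and 31.6% and 49.5% in the Drosha pair, so all 3 Treg libraries lay above all 3 DN3 libraries. The upstream start changes the seed from CCACAGG to ACCACAG. For miR-142-5p the start 2 bases upstream held 35.6% in DN3 control and 44.2% in Treg control, with entries filed under the hairpin included. The Dicer and Drosha pairs of miR-142-5p went the other way, from 38.7% to 36.6% and from 47.8% to 36.0%.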

How the data were processed

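The deposited miRNA lists give 1 distinct sequence per entry with its miRNA, its part of the hairpin and a score, the authors' normalised mapping count rounded to whole numbers. Adaptors were clipped and reads mapped to miRNA loci, per the labels; the aligner, miRBase release and genome build are not given in the sources used here. For each miRNA name, with species prefix and locus copy number dropped, values of its guide and passenger entries were added up. Strands of a hairpin that carry different names were kept apart. Ratios used a pseudocount of 0.5 and were centred on the median miRNA at 50 or more in both libraries. limma 3.58.1 (R 4.3.3) was fitted to log2(value + 0.5), centred per library, for miRNAs listed in all 6 libraries, with genotype and cell type as terms and Benjamini-Hochberg adjustment, after a test on simulated data. The fit leaves out miRNAs missing from any list and treats values of different abundance alike. The variance of each miRNA was moderated towards that of all fitted miRNAs. Variants were placed on the leading DN3 sequence by an exact overlap of at least 12 bases, for arms at 1000 or more.

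Named miRNAs were drawn from the 10 highest per control library, the 12 highest and 12 lowest ratios and the 5 highest listed in one control only. They were also drawn from the members of the lists and the 10 arms with the largest make-up difference. Not every member of these sets is described, and others from the limma fit were chosen after their values were seen. The members and lists were chosen with earlier results of these data known. Annotation came from GENCODE M21 (GRCm38) by gene name. The alternatives tried were the centring, minimum, floor, pseudocount, entry types, genotype block and leaving out libraries or pairs. CD4 and fibroblast lists and a list of other small RNAs were not used here.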

Additional observations from a re-analysis of the deposited data

Results flagged for a closer look

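In 4 miRNAs the cell types differed in opposite directions in the control pair and the Drosha pair, with a centred log2 ratio of at least 1 in size in each. The difference between the pairs was not tested, since each pair is 1 library a side. miR-144 was lower in Treg in the control pair (341 in DN3, 73 in Treg) and higher by 2.74 in the Drosha pair (123 and 648). miR-451 was lower in the control pair (5126 and 1102) and higher by 1.21 in the Drosha pair (4268 and 7748). miR-181a* was lower in the control pair (720 and 80) and higher by 1.43 in the Drosha pair (366 and 777). miR-805 was lower in the control pair (291 and 51) and higher by 1.81 in the Drosha pair (126 and 349). In the Dicer pair all 4 were lower in Treg, as in the control pair.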

How the results depend on the processing

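Depth is unknown and each control group is 1 library, so small ratios cannot be told from noise. With values as deposited, not centred, 13 miRNAs were higher and 56 lower in the control pair. Divided by the total and not centred, 13 were higher and 57 lower. With a minimum of 200, 15 were higher and 18 lower, since fewer miRNAs were compared. A minimum of 10, a floor per sequence of 50, a pseudocount of 10, guide entries alone and all entries kept both counts within 1.5 times. Named log2 ratios of at least 1 in size that changed sign were miR-101a (-0.24) and miR-34a (0.66) in the Dicer pair, and miR-34a (0.35), miR-423-5p (-0.24), miR-144 (2.74), miR-181a* (1.43), miR-451 (1.21) and the median of the 2 erythroid miRNAs compared (1.97) in the Drosha pair, besides miR-805 above; the cause was not tested. Smaller list medians also changed sign, in the Dicer pair let-7 (-0.47 to 0.43), miR-30 (-0.31 to 0.17) and miR-101 (0.98 to -0.07), and in the Drosha pair miR-191 with miR-425 (0.64 to -0.86). For variants, a minimum of 5000 left 21 arms shorter in Treg, of 22, and 3 with another leading sequence. The Dicer pair gave 6 arms with another leading sequence and a median length change of -0.069 nt. In the limma fit, values not centred gave 14 higher and 45 lower calls, and no genotype block gave 20 and 28. Leaving out 1 library or 1 pair gave 11 to 25 higher and 9 to 31 lower calls, with the lowest counts without either Dicer-deficient library or the Dicer pair, when 20 of the 53 calls were kept. A library left alone in its genotype adds nothing to the difference, so leaving out 1 library equals leaving out its pair. No miRNA called in the full fit changed sign under any of these limma settings. No paired analysis by replicate number was possible because each group has 1 library.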
